A study of Mus musculus with 16 samples.

Results

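A set of 10 genes is described here across ADH-503-treated and vehicle-treated pancreatic tumours of mice: Arg1, Mrc1, Cd163, Chil3, Retnla, Il10, Spp1, Trem2, Gpnmb and Nos2. They were chosen by symbol in the authors' annotation of the array. They are used as markers of alternative, immunosuppressive or, for Nos2, classical activation of macrophages, the cells the drug is meant to repolarise. The choice went by symbol and not by a filter on measured values, but it was made with earlier results of these data known. They are 10 of the 37008 names on the array and have 11 of its 56605 probes, 1 each and 2 for Cd163. All samples were orthotopic pancreatic tumours of female C57BL/6 mice. There were 5 samples taken 10 days after treatment with ADH-503 began, 5 taken at 48 h and 6 from vehicle-treated animals. ADH-503, called LA1 in the titles of the treated samples, is a small-molecule agonist of CD11b, an integrin chain carried by macrophages, monocytes and granulocytes. The labels give the vehicle samples no time, so the same 6 samples serve as controls for both times and the 2 comparisons with vehicle are not independent. Animal age, dose and the implanted tumour cells are not given in the sources used here.

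Total RNA was measured on 1-colour Agilent arrays, 1 array per sample. Nothing in the labels ties a sample to an animal, so p-values reflect only how far these 16 samples spread, which may be partly technical. A level below is the log2 processed signal of a probe minus the 75th percentile of its own array, which ran from 4953 to 6736 signal units over the arrays; levels of different probes are not compared with each other, since probes differ in brightness. The 16 arrays lay on 2 slides, with a scan session for each: slide 1 held 3 samples of 10 days, 4 of 48 h and 1 of vehicle, and slide 2 held 2 of 10 days, 1 of 48 h and 5 of vehicle. Slide and treatment are therefore partly confounded, and values with slide as a block are given beside many of the results. Vehicle replicate 2 and 48 h replicate 5 carry 1 shared ID number in their titles; both were kept, and without them no gene described here passed the threshold either. All 15 macrophage core markers, among them Adgre1, Csf1r and C1qa, were well above background on all 16 arrays, so macrophage RNA was measured in every sample. Their mean level was 3.92 to 4.07 in 10-day samples, 3.97 to 4.19 in 48 h samples and 3.76 to 4.06 in vehicle samples. The RNA is that of whole tumours, in which fewer cells of a type and less RNA per cell cannot be told apart. Which cells made the RNA of each of the 10 genes was not measured.

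Macrophages that meet interleukin-4 or interleukin-13 signal through STAT6 and make arginase 1, the mannose receptor, chitinase-like 3 and resistin-like alpha, a state called alternative activation. Interferon and microbial products instead induce nitric oxide synthase 2, which competes with arginase for arginine, in classical activation. In tumours, macrophages carrying CD163, TREM2, osteopontin or GPNMB are associated with lipid uptake, matrix remodelling and restraint of T cells.

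None of the 10 genes passed the threshold of 0.05 on the Benjamini-Hochberg adjusted p-value of limma, computed over the 30582 genes tested, in any of the 3 comparisons. Among all genes tested, 0% passed it at 10 days against vehicle, 0% at 48 h against vehicle and 0% at 10 days against 48 h. At an unadjusted p under 0.05 the count of these genes was also 0 in each comparison, where 3.54% of all genes tested passed at 10 days against vehicle, 2.56% at 48 h against vehicle and 3.47% at 10 days against 48 h. No member had groups that did not overlap, which held for 0.213%, 0.141% and 0.5% of all genes in the same 3 comparisons. All 11 probes were well above background on all 16 arrays, so all 10 genes entered the tests and none was lost to the filter on dim probes.

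Against vehicle, 5 of the 10 genes had a higher mean at 10 days and 5 a lower one, with a median log2 fold change of 0.0090, beside -0.0086 over all genes tested, of which 48% were higher and 52% lower. At 48 h, 6 were higher than in vehicle and 4 lower, with a median of 0.11, beside -0.013 over all genes tested, of which 46.8% were higher and 53.2% lower. With slide as a block the 48 h median was 0.035 and the 10-day median -0.038. Between the treated groups, 4 were higher at 10 days than at 48 h and 6 lower, with a median of -0.031, beside 0.0048 over all genes, of which 51.1% were higher and 48.9% lower. Slide as a block turned this round, with 6 higher and a median of 0.030.

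**Figure D1:**
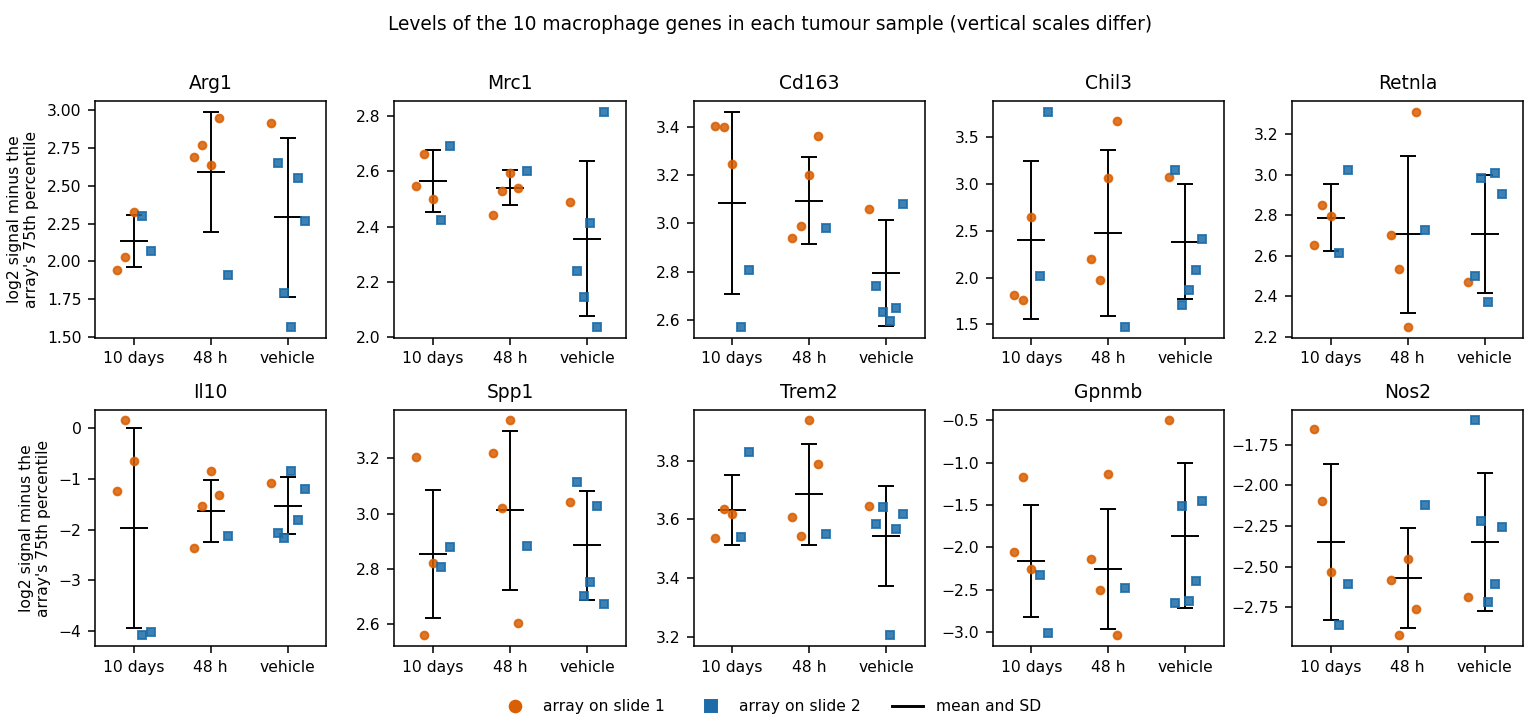
Level of each gene, as log2 signal minus the array's 75th percentile, in every tumour sample by group, with orange circles for arrays on slide 1, blue squares for arrays on slide 2 and black bars for the mean and SD. The groups overlap in all 10 panels, and the 2 lowest Il10 values, -4.08 and -4.03, are 10-day samples on slide 2.

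Arg1 encodes arginase 1, which splits arginine into ornithine and urea and so takes it from nitric oxide synthesis and from T cells. Its probe lies at chr10:24636194-24636253 (mm9), and its sequence, from the scanner files, is shown because 1 probe carries every Arg1 value below:
Arg1 probe: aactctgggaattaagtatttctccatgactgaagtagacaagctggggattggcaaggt
The 5 samples of 10 days had Arg1 levels of 1.94, 2.03, 2.33, 2.30 and 2.07. The 5 samples of 48 h had 2.69, 2.77, 2.64, 2.94 and 1.91, and the vehicle samples ran from 1.57 to 2.91 with a median of 2.41. Thus 4 of the 5 samples of 48 h lay above every 10-day sample and the fifth lay below them all, while all 10-day samples lay inside the range of vehicle. The means fell in the order 48 h (2.59 ± 0.40, SD, n = 5), vehicle (2.29 ± 0.52, SD, n = 6) and 10 days (2.13 ± 0.17, SD, n = 5), and no neighbours in that order differed beyond their spread.

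The difference in Arg1 between the treated times was the one with the smallest p-value among the 10 genes. The log2 fold change at 10 days against 48 h was -0.46 ± 0.25 (SE), with a 95% interval of -0.98 to 0.07 and an unadjusted limma p of 0.0825. Against vehicle it was -0.16 ± 0.24 at 10 days and 0.30 ± 0.24 at 48 h. The 10-day difference from vehicle was -0.34 with slide as a block, -0.81 on slide 1 with its 1 vehicle sample and 0.02 on slide 2. The 4 high samples of 48 h were on slide 1, together with the highest vehicle sample, and the low one was on slide 2. With slide as a block the 48 h difference from vehicle was 0.03, and within the slides it was -0.15 on slide 1 and -0.25 on slide 2. Slide as a block put the 10-day difference from 48 h at -0.37. It was -0.66 on slide 1 alone and 0.27 on slide 2, where 48 h has 1 sample.

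Nos2 encodes the inducible nitric oxide synthase of classically activated macrophages, and its probe is at chr11:78773567-78773626 (mm9). Its signal, 804 to 2048 units over the 16 arrays, was low but well above background in each. The level was -1.65, -2.09, -2.53, -2.86 and -2.61 in the 10-day samples. It was -2.58, -2.92, -2.45, -2.76 and -2.12 in the 48 h samples, and -2.72 to -1.60 with a median of -2.43 in vehicle samples. The highest samples of 10 days and of vehicle were close to each other, and the groups overlapped over most of their range. At 10 days against vehicle the log2 fold change was -0.0006 ± 0.24, with a 95% interval of -0.51 to 0.51, and at 48 h it was -0.22 ± 0.24. The near-zero difference at 10 days was 0.60 within slide 1 and -0.45 within slide 2. Across the 16 samples Nos2 and Arg1 had a Pearson r of -0.31 (permutation p = 0.234, adjusted p = 0.891). On the 8 arrays of each slide r was -0.89 within slide 1 and 0.32 within slide 2.

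The other genes of arginine use were those for arginase 2, the other nitric oxide synthases, the cationic amino acid transporters, the polyamine enzymes and the citrulline-arginine cycle. None of the 14 passed the threshold in any comparison. At 10 days, 3 were higher and 11 lower than in vehicle, with a median log2 fold change of -0.18, and 2 of the lower ones had an unadjusted p under 0.05, as did 3.54% of all genes. Odc1, ornithine decarboxylase, which turns the product of arginase into polyamines, was 3.57 ± 0.16 at 10 days (SD, n = 5) against 3.87 ± 0.14 in vehicle (SD, n = 6), a log2 fold change of -0.30 ± 0.11 (limma, unadjusted p = 0.0153). Slc7a1, the main arginine importer of many cells, was 1.39 ± 0.22 at 10 days against 1.69 ± 0.10 in vehicle, also -0.30 ± 0.11 (limma, unadjusted p = 0.0175). Slide as a block left them at -0.28 for Odc1 and -0.31 for Slc7a1. At 48 h, 6 were higher and 8 lower than in vehicle with a median of -0.049, the smallest p-values being those of Nos3 (-0.61 ± 0.30, -0.80 with slide as a block) and Arg2 (-0.61 ± 0.31, -1.08 with slide as a block). At 10 days against 48 h, 4 were higher and 10 lower with a median of -0.17. Of the lower ones 3 had an unadjusted p under 0.05, as did 3.47% of all genes, with Slc7a1 at -0.39 ± 0.12 (limma, unadjusted p = 0.00464).

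Mrc1 encodes the mannose receptor CD206, an endocytic lectin of alternatively activated macrophages, with a probe at chr2:14253273-14253332 (mm9). Its level was 2.55, 2.66, 2.50, 2.42 and 2.69 in the 10-day samples. In the 48 h samples it was 2.44, 2.53, 2.59, 2.54 and 2.60, and in vehicle samples 2.04 to 2.82 with a median of 2.33. All 10 treated samples sat in a narrow band inside the range of vehicle, with 4 of the 6 vehicle samples below that band and 1 above it. The log2 fold change against vehicle was 0.21 ± 0.12 at 10 days, with a 95% interval of -0.06 to 0.47, and 0.18 ± 0.12 at 48 h, with an interval of -0.08 to 0.45. The treated groups differed by 0.02 ± 0.13. Slide as a block left the differences from vehicle at 0.20 and 0.17.

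Cd163 encodes the haemoglobin-haptoglobin scavenger receptor of monocytes and tissue macrophages. It was the only member with 2 probes, at chr6:124280484-124280543 and, for the dimmer one, chr6:124270436-124270495 (mm9). The dimmer probe is shown because it gives a second measurement of the gene:
Cd163 second probe: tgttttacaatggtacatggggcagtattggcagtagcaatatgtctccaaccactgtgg
On the brighter probe the 10-day samples had levels of 3.41, 3.40, 3.25, 2.57 and 2.81. The 48 h samples had 2.94, 2.99, 3.20, 3.36 and 2.98, and vehicle ran from 2.60 to 3.08 with a median of 2.69. At 10 days 3 samples lay above every vehicle sample, and 4 of the 6 vehicle samples lay below every 48 h sample. The means were 3.09 ± 0.38 at 10 days, 3.09 ± 0.18 at 48 h and 2.79 ± 0.22 in vehicle (SD, n = 5, 5 and 6).

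Cd163 had the smallest p-values of the 10 genes against vehicle at both times. Its log2 fold change was 0.29 ± 0.16 at 10 days, with a 95% interval of -0.06 to 0.64 (limma, unadjusted p = 0.0959, adjusted p = 0.999976). At 48 h it was 0.30 ± 0.16, with an interval of -0.05 to 0.65 (limma, unadjusted p = 0.0871, adjusted p = 0.999979). The second probe gave 0.48 ± 0.36 at 10 days and 0.60 ± 0.36 at 48 h in a limma fit of 46088 probes, of which 0 passed the threshold. Across the 16 samples the 2 probes had a Pearson r of 0.852 and a Spearman rho of 0.812 (permutation p = 0.00012 and 0.00023), with r = 0.862 without the 2 samples farthest from the median, 0.560 within slide 1 and 0.773 within slide 2. The slides differed too: the 3 samples of 10 days above all vehicle samples were on slide 1 and the other two on slide 2. With slide as a block the differences of the brighter probe from vehicle were 0.11 at 10 days and 0.04 at 48 h. On that probe slide 2 was below slide 1 by a log2 difference of -0.41 ± 0.13 after allowance for group (limma, unadjusted p = 0.00514, adjusted p = 0.877). The second probe had means of 2.88 on slide 1 and 1.99 on slide 2. At 10 days its means on the 2 slides were 3.10 and 1.78. At 48 h they were 2.73 and 2.59 (1 sample), and in vehicle 2.78 (1 sample) and 1.96.

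Trem2 encodes a lipid-sensing receptor of macrophages that signals through Tyrobp and Syk, with a probe at chr17:48491537-48491596 (mm9). Its level was 3.54, 3.64, 3.62, 3.54 and 3.83 at 10 days. At 48 h it was 3.61, 3.54, 3.94, 3.79 and 3.55, and in vehicle 3.20 to 3.65 with a median of 3.60. The ranges of the groups overlapped, and the lowest vehicle sample lay apart from the others. Trem2 had the narrowest intervals of the 10 genes: the log2 fold change against vehicle was 0.09 at 10 days, with a 95% interval of -0.15 to 0.32, and 0.14 at 48 h, with an interval of -0.09 to 0.38. Slide as a block gave 0.07 at 10 days and 0.11 at 48 h. With the mean of the macrophage core markers as a covariate the differences were 0.07 and 0.02.

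Gpnmb encodes a membrane glycoprotein of lipid-laden macrophages and melanocytes, with a probe at chr6:49006386-49006445 (mm9). Its level was -2.06, -1.16, -2.26, -2.33 and -3.01 in the 10-day samples. It was -2.13, -2.51, -1.13, -3.04 and -2.48 in the 48 h samples, and -2.66 to -0.50 with a median of -1.95 in vehicle samples. Each group spanned more than a log2 unit and the ranges overlapped. Against vehicle the log2 fold change was -0.30 ± 0.43 at 10 days and -0.40 ± 0.43 at 48 h. The highest sample was the vehicle sample of slide 1, and with slide as a block the differences were -0.70 at 10 days and -0.98 at 48 h (limma, unadjusted p = 0.0411 for 48 h, adjusted p = 0.999784). Without that 1 sample, and without the block, the differences from vehicle were -0.03 at 10 days and -0.13 at 48 h. Within slide 2, which does not hold that sample, the differences were -0.53 at 10 days and -0.35 at 48 h. Within slide 1, where it was the only vehicle sample, they were -1.33 at 10 days and -1.70 at 48 h. How far the blocked values rest on that sample was not tested.

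Of the 17 genes of the TREM2 pathway and of lipid-handling macrophages, 0 passed the threshold in any comparison. At 10 days 6 were higher and 11 lower than in vehicle with a median log2 fold change of -0.019, and at 48 h 9 were higher and 8 lower with a median of 0.019. Blocking by slide moved the medians to -0.041 at 10 days and -0.020 at 48 h. Fabp4, a fatty acid carrier, was -0.07 ± 0.50 at 10 days against 0.44 ± 0.37 in vehicle, a difference of -0.51 ± 0.27 (SE). Apoe, the apolipoprotein that binds TREM2, was 5.19 ± 0.09 at 48 h against 5.06 ± 0.12 in vehicle (SD, n = 5 and 6), and Mitf, a transcription factor upstream of Gpnmb, was 1.54 ± 0.23 at 48 h against 1.34 ± 0.26 in vehicle, a difference of 0.20 that was 0.047 with slide as a block.

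A further 13 scavenger receptors and genes of tissue-resident macrophages were set beside Cd163 and Mrc1. None passed the threshold, and none had an unadjusted p under 0.05 in limma. At 10 days 10 were higher and 3 lower than in vehicle, with a median log2 fold change of 0.21 (0.12 with slide as a block), where 48% of all genes tested were higher. At 48 h the counts were again 10 and 3, with a median of 0.19 (0.078 with slide as a block), where 46.8% of all genes were higher. Vsig4, a complement receptor of resident macrophages, was 1.80 ± 0.60 at 10 days against 1.03 ± 0.61 in vehicle, a difference of 0.77 ± 0.40 (SE). Lyve1, a hyaluronan receptor, was 1.05 ± 0.76 at 10 days against 0.43 ± 0.52 in vehicle, a difference of 0.62 ± 0.38 that was 0.34 with slide as a block. Stab1, a scavenger receptor, was 3.95 ± 0.11 at 48 h against 3.75 ± 0.13 in vehicle, a difference of 0.19 that was 0.058 with slide as a block.

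**Figure D2:**
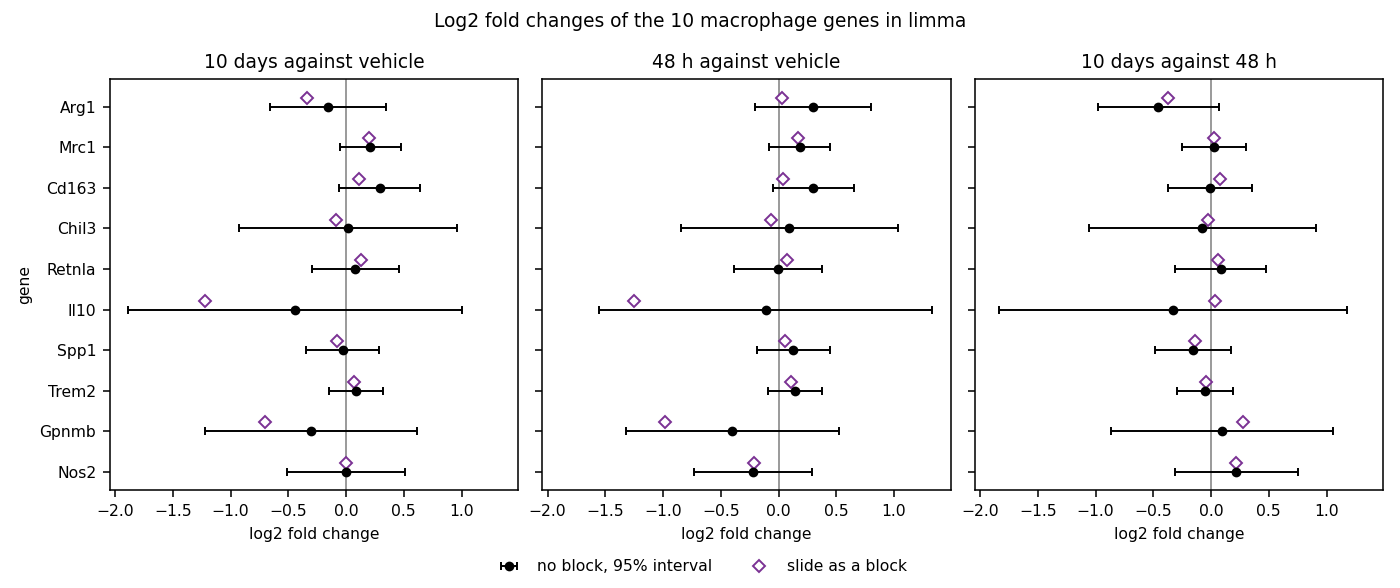
Log2 fold change of each gene (x axis) in the 3 comparisons, with black points and bars for the limma estimate and its 95% interval and open purple diamonds for the estimate with slide as a block. All intervals include 0, and the diamonds of Il10 and Gpnmb lie well below the points in the comparisons with vehicle.

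Chil3, also called Ym1, encodes a secreted chitinase-like lectin, and Retnla, also called Fizz1, a secreted resistin-like protein; both are textbook targets of interleukin-4 in mouse macrophages. Their promoters, from RefSeq on GRCm38.p6, are shown because each holds a palindrome of the kind that STAT proteins bind, given in capitals. Both run from 250 bases before the gene start to 50 bases after it, 5′ to 3′ on the gene's strand. Retnla lies on the plus strand at chr16:48842359-48842658, with TTCNNNNGAA beginning 145 bases before the start, and Chil3 on the minus strand at chr3:106167515-106167814, with TTCNNNGAA beginning 172 bases before it:
Retnla promoter: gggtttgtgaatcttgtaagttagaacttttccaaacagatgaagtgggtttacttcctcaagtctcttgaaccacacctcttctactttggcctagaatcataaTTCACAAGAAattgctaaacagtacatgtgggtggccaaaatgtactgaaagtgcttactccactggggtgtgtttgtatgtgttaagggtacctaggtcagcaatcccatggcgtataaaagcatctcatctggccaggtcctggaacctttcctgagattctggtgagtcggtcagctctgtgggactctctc
Chil3 promoter: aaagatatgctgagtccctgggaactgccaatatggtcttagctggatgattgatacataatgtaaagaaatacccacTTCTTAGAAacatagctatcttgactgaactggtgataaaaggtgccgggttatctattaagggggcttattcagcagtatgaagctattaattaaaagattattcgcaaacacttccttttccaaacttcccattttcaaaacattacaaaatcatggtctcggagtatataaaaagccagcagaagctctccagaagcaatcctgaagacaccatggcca
Both patterns read the same on either strand. TTCNNNNGAA was found in 2284 of 32851 mouse promoter windows, 6.95%, and TTCNNNGAA in 2726, 8.3%. Of the 8 windows found for 7 of the genes, 1 matched each pattern; Arg1, Il10 and Nos2 had no entry.

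Chil3 varied widely within every group. Its level was 1.82, 1.76, 2.64, 2.02 and 3.77 at 10 days. At 48 h it was 2.20, 1.97, 3.06, 3.68 and 1.47, and in vehicle 1.71 to 3.14 with a median of 2.25. The 10-day and 48 h samples each held a value above every vehicle sample, and the 48 h samples also held the lowest value of all. Its mean log2 difference from vehicle was 0.02 ± 0.44 at 10 days and 0.09 ± 0.44 at 48 h, with a 95% interval of -0.85 to 1.04 at 48 h. The 10-day difference was -1.0 within slide 1 and 0.65 within slide 2. The Chil3 probe is at chr3:105950485-105950544 (mm9).

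Retnla, measured at chr16:48844447-48844506 (mm9), was 2.65, 2.85, 2.80, 2.61 and 3.02 at 10 days. At 48 h it was 2.70, 2.53, 2.25, 3.31 and 2.73, and in vehicle 2.37 to 3.01 with a median of 2.70. The vehicle range lay within that of the 48 h samples, and the 10-day samples lay inside the vehicle range but for 1 just above it. The log2 fold change against vehicle was 0.08 ± 0.18 at 10 days and -0.0016 ± 0.18 at 48 h. Blocking by slide gave 0.13 at 10 days and 0.07 at 48 h.

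The interleukin-4 and interleukin-13 pathway was represented by 28 other genes, from the ligands and receptor chains through Stat6 to targets such as Mgl2, Ccl17 and Ccl24. None passed the threshold in any comparison. At 10 days 12 were higher and 16 lower than in vehicle with a median log2 fold change of -0.059, and at 48 h 13 were higher and 15 lower with a median of -0.0009. The medians became -0.022 at 10 days and 0.069 at 48 h with slide as a block. Irf4, a transcription factor of alternative activation, was 1.14 ± 0.33 at 10 days against 1.48 ± 0.22 in vehicle, a difference of -0.34 ± 0.15 (limma, unadjusted p = 0.0426). Tgm2, the crosslinking enzyme transglutaminase 2, was 2.39 ± 0.28 at 10 days against 2.71 ± 0.17 in vehicle, and Kdm6b, a histone demethylase, 2.58 ± 0.38 at 48 h against 2.91 ± 0.21 in vehicle. At 10 days against 48 h, 9 were higher and 19 lower with a median of -0.055, with Ccl24, a chemokine for eosinophils, at 2.73 ± 0.38 at 10 days against 3.10 ± 0.16 at 48 h. For classical activation, to which Nos2 belongs, 4 of 18 genes were higher and 14 lower at 10 days with a median of -0.14, and 3 were higher and 15 lower at 48 h with a median of -0.15; again 0 passed the threshold. At an unadjusted p under 0.05, 3 of the 18 were lower at 10 days, where 3.54% of all genes passed, and 0 at 48 h, where 2.56% did. The blocked medians were -0.22 at 10 days and -0.14 at 48 h. Among its genes Il12b, the p40 chain of interleukin-12, was -3.03 ± 0.35 at 10 days against -2.20 ± 0.31 in vehicle. Ptgs2, the inducible cyclooxygenase, was 1.40 ± 0.29 at 10 days against 1.94 ± 0.18 in vehicle, a difference of -0.54 ± 0.16 (limma, unadjusted p = 0.00481).

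Il10 encodes interleukin-10, which restrains inflammatory cytokine production, and its probe is at chr1:132920943-132921002 (mm9). The 10-day samples had levels of -1.23, 0.15, -0.65, -4.08 and -4.03. The 48 h samples had -2.36, -1.54, -0.85, -1.31 and -2.13, and the vehicle samples ran from -2.17 to -0.85 with a median of -1.51. The 10-day samples thus lay on both sides of vehicle, with 2 above every vehicle sample and 2 below them all, and their SD was 1.97 against 0.61 at 48 h and 0.56 in vehicle. In signal units the 10-day samples ran from 356 to 6768. The mean difference from vehicle was -0.44 ± 0.68 at 10 days, with a 95% interval of -1.88 to 1.0, and -0.11 ± 0.68 at 48 h.

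The split of the 10-day Il10 values followed the slides: the 3 higher samples were on slide 1 and the 2 low ones on slide 2. Within slide 1 the 10-day difference from vehicle was 0.50, against a single vehicle sample, and within slide 2 it was -2.44 ± 0.38 (limma within the slide, adjusted p = 0.352). With slide as a block the difference was -1.22 ± 0.54 at 10 days (limma, unadjusted p = 0.0404, adjusted p = 0.999968). At 48 h it was -1.25 ± 0.59 in the same fit (limma, unadjusted p = 0.0507, adjusted p = 0.999784). Within the slides the 48 h difference was smaller, -0.44 on slide 1 and -0.51 on slide 2. Il10 was lower on slide 2 by a log2 difference of -1.80 ± 0.49 after allowance for group (limma, unadjusted p = 0.00244, adjusted p = 0.871). The blocked fit takes the slide difference to be the same in every group, but it was by far the largest at 10 days. There the means were -0.58 on slide 1 and -4.05 on slide 2. At 48 h they were -1.52 and -2.13 (1 sample), and in vehicle -1.08 (1 sample) and -1.62. Over all 30582 genes, 0 passed the threshold between the slides in limma. Vehicle samples of slide 2, at -2.17 to -0.85, were not low like the 10-day samples of that slide. The part of the slide in the Il10 values was not tested beyond these fits.

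**Figure D3:**
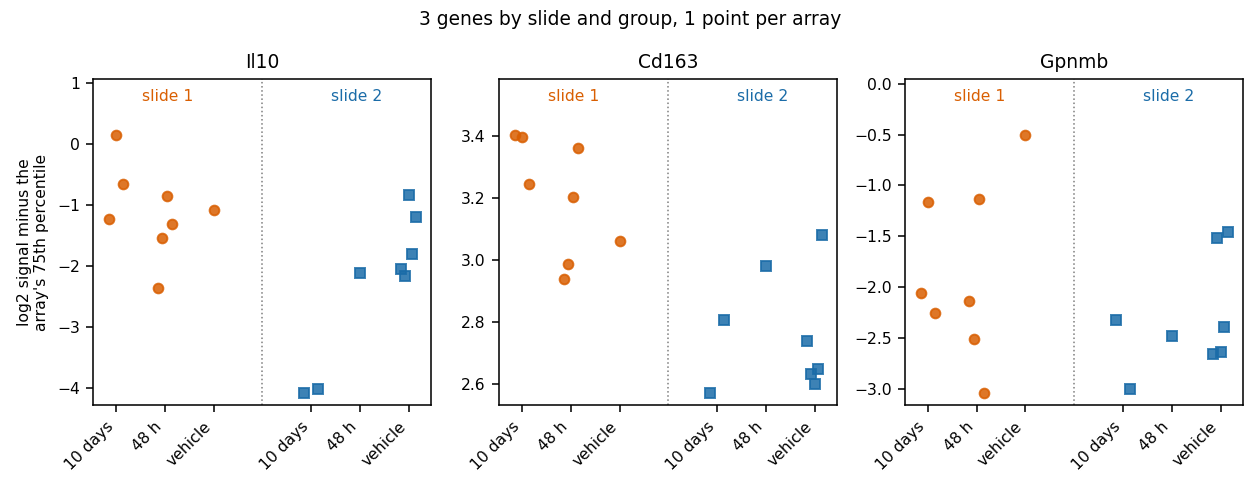
Level of Il10, Cd163 and Gpnmb on each array, as log2 signal minus the array's 75th percentile, split by slide and by group, 1 point per array. Il10 at 10 days lies at -1.23 to 0.15 on slide 1 and at -4.08 to -4.03 on slide 2, and Cd163 at 10 days lies at 3.25 to 3.41 on slide 1 and 2.57 to 2.81 on slide 2.

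None of the 8 genes of interleukin-10 signalling passed the threshold. Maf, a transcription factor that drives Il10 in macrophages, was 2.33 ± 0.09 at 10 days against 2.15 ± 0.23 in vehicle (SD, n = 5 and 6). Nfil3, a repressor induced by interleukin-10, was 2.52 ± 0.18 at 10 days against 2.80 ± 0.24 in vehicle. Bcl3, another gene induced by the cytokine, was 0.86 ± 0.20 at 48 h against 1.13 ± 0.11 in vehicle, a difference of -0.27 ± 0.12 (limma, unadjusted p = 0.0376). Of the 8, 3 were higher and 5 lower at 10 days, and 4 were higher and 4 lower at 48 h.

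Spp1 encodes osteopontin, a secreted matrix protein that binds CD44 and integrins, with a probe at chr5:104869788-104869847 (mm9). Its level was 3.20, 2.56, 2.82, 2.81 and 2.88 at 10 days. At 48 h it was 3.22, 3.02, 3.34, 2.61 and 2.88, and in vehicle 2.67 to 3.11 with a median of 2.89. Both treated groups reached above and below the whole vehicle range. The log2 fold change against vehicle was -0.03 ± 0.15 at 10 days and 0.13 ± 0.15 at 48 h. Blocking by slide gave -0.08 at 10 days and 0.06 at 48 h. Of its 7 receptor genes, 1 was higher and 6 lower at 10 days with a median of -0.17, and 5 were higher and 2 lower at 48 h with a median of 0.056 (0.10 with slide as a block), with none past the threshold. Cd44 was 3.44 ± 0.15 at 10 days against 3.62 ± 0.17 in vehicle.

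Of 11 near relatives of these genes, such as Chil1, Retn, Retnlb, Mrc2 and Ibsp, 0 passed the threshold. Ibsp, which encodes bone sialoprotein of the osteopontin family, was -4.26 ± 0.45 at 48 h against -3.68 ± 0.33 in vehicle, a difference of -0.58 ± 0.24 (limma, unadjusted p = 0.0276).

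Markers of macrophages and of the other cells a tumour can hold were set beside these values, and none passed the threshold. All 15 macrophage core markers had a higher mean at 48 h than in vehicle, with a median log2 fold change of 0.067, and 12 of 15 at 10 days, with a median of 0.037. The blocked medians were 0.11 at 48 h and 0.052 at 10 days. All 12 granulocyte markers had a lower mean at 10 days than in vehicle, where 52% of all genes did, and their mean level was -1.73 to -0.47 at 10 days, -1.26 to 0.20 at 48 h and -0.95 to 0.21 in vehicle. All 12 ductal and tumour epithelial markers had a lower mean at 10 days as well, with list means of -1.07 to 0.69 against -0.37 to 1.60 in vehicle. The same held for all 8 mast cell markers (median log2 fold change -0.55) and all 6 eosinophil markers (-0.25) at 10 days. With slide as a block these medians were -0.82 for mast cell and -0.076 for eosinophil markers. All 7 erythroid markers had a lower mean at both times, with a median of -1.48 at 10 days and -0.75 at 48 h. Of these, 4 had an unadjusted limma p under 0.05 at 10 days, where 3.54% of all genes did. At 48 h 3 had one, where 2.56% of all genes did. With slide as a block the erythroid medians were -0.65 at 10 days and -0.68 at 48 h. Acinar markers had list means of 1.56 to 1.98 at 48 h against 0.04 to 1.66 in vehicle, and 12 of 13 had a higher mean at 48 h. The unadjusted limma p was under 0.05 for 8 of these 12, and for 2.56% of all genes. In the other lists the markers did not all move the same way. At 10 days and at 48 h, 52% and 53.2% of all genes were lower than in vehicle. Of 7 monocyte markers 5 and 2 were lower, and of 7 dendritic cell markers 4 and 5. Of 9 T and NK cell markers 8 and 4 were lower, and of 6 B cell markers 2 and 1. Of 10 fibroblast markers 6 and 7 were lower, and of 7 endothelial markers 6 at each time. The part of these markers in the values of the 10 genes was not tested beyond a fit with the macrophage mean as a covariate.

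The 10 genes did not vary as 1 block over the samples. Of their 45 pairs, 29 had a Pearson r above 0 over the 16 samples, with a median of 0.130 and a range of -0.586 to 0.638, and 0 passed 0.05 after adjustment of the permutation p-values over the 45 pairs. The highest was Chil3 with Trem2, at r = 0.638 and rho = 0.568 (permutation p = 0.00481, adjusted p = 0.188). It was 0.484 without the 2 samples farthest from the median, 0.715 within slide 1 and 0.572 within slide 2. Cd163 with Il10 came next, at r = 0.620 and rho = 0.606 (permutation p = 0.00899, adjusted p = 0.188), with 0.537 without the farthest 2 samples, 0.665 within slide 1 and 0.215 within slide 2. It passed the threshold in the authors' quantile-normalized table (r = 0.714, permutation test, adjusted p = 0.0297). Mrc1 with Cd163, the pair of scavenger receptors, had r = 0.602 and rho = 0.644 (permutation p = 0.0129, adjusted p = 0.188), 0.450 without the farthest 2 samples, 0.673 within slide 1 and 0.733 within slide 2. The secreted products Retnla and Spp1 had the lowest value, r = -0.586 and rho = -0.535 (permutation p = 0.0167), which was -0.329 without the farthest 2 samples, -0.789 within slide 1 and -0.118 within slide 2. In the authors' table it was -0.737 and passed the threshold (permutation test, adjusted p = 0.0297).

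**Figure D4:**
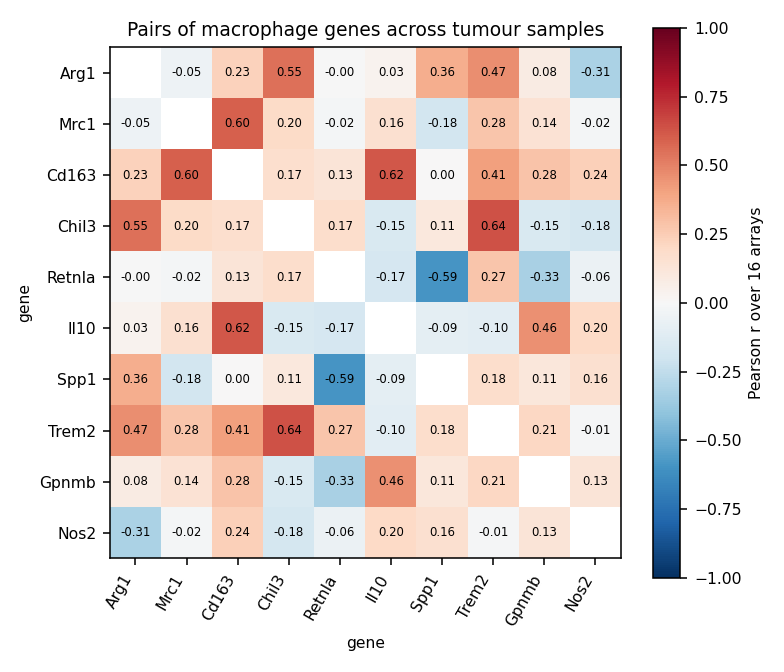
Pearson r over the 16 tumour samples for each pair of the 10 genes, with red for positive and blue for negative values and the value printed in each cell. The 4 highest values are those of Chil3 with Trem2 (0.64), Cd163 with Il10 (0.62), Mrc1 with Cd163 (0.60) and Arg1 with Chil3 (0.55), and the lowest is that of Retnla with Spp1 (-0.59).

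The genes most like each member were taken as the 3 with the highest Pearson r to it over the 16 samples, out of all genes tested. These values describe the samples and share their arrays and scaling, and as maxima over many genes they carry no test. Cd163 was nearest to Stab1 (r = 0.924), which is itself a scavenger receptor of the list above, followed by Nrap (0.908) and Pmp22 (0.900). Trem2 was nearest to Sqor (0.933), a mitochondrial sulfide oxidase, Ccdc115 (0.926) and Fam89b (0.915). Il10 was nearest to the monocyte chemokine Ccl7 (0.900), then Bmp2 (0.876) and Ttll8 (0.871), and Ccl7 held 0.609 within slide 1 and 0.938 within slide 2.

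For Mrc1, genes among the nearest were Cep170 (0.841) and Nr3c1, the glucocorticoid receptor (0.829). Gpnmb was nearest to Vsig8 (0.890), an unnamed transcript (ENSMUST00000103388, 0.854) and Atp6v0d2 (0.852), a subunit of the vacuolar proton pump. Spp1 was nearest to the laminin-binding integrin chain Itga6 (0.870), Hsd11b1 (0.843) and Apob (0.822). Nos2 was nearest to Bdkrb1 (0.863), the kinin receptor B1, then 2310067P03Rik (0.834), which was well above background on 5 arrays only, and Pcdhb12 (0.831). Retnla was nearest to Kdm7a (0.852), Usp4 (0.818) and Rasgrp4 (0.815), and Chil3 to Pi16 (0.822), a transcript without a symbol (ENSMUST00000197160, 0.815) and Lsr (0.801). Arg1 had the lowest maximum, with Apba3 (0.801), Map2k6 (0.753) and the glycolytic enzyme Tpi1 (0.749).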

How the data were processed

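RNA of 16 mouse tumour samples was measured on 1-colour Agilent 8x60K arrays (Cy5), and the treatment and time labels gave the groups. Per the file headers, the authors' scanner files hold each spot's processed intensity, background-subtracted and on a linear scale, with probe positions on mm9; Agilent Feature Extraction 11.5.1.1 was used, per the submitters' processing notes. The authors' deposited log2 table of the same arrays, quantile-normalized as its sorted columns differ by at most 0.0043, served as an alternative and supplied the symbols. Its columns correlated with their arrays' log2 scanner values at r = 0.998 or more, and the median of each was 10.190.

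Control spots and 62 outlier values among the genes tested were left out, and each array's 75th percentile of log2 signal was subtracted. Names came from RefSeq (GRCm38.p6), and the brightest probe stood for a gene. The 30582 genes well above background on at least 5 of 16 arrays entered 1 linear model of the 3 groups (lmFit and robust eBayes of limma 3.58.1, R 4.3.3; 2-sided p, Benjamini-Hochberg). Precision is limited by the number of arrays; 74.9% to 81.2% of probes were well above background per array. Correlations used 100000 permutations. The script was tested on simulated data. The 10 genes, the gene lists and the rule for named genes (every member, up to 2 genes with the smallest p per list and comparison, and the 3 genes most like each member) were chosen with earlier results of these data known. The rule also named 1 gene that is not reported here.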

Additional observations from a re-analysis of the deposited data

Results flagged for a closer look

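Of 33 sets of values (each probe of the 10 genes in each group), 1 held a sample far from the rest of its group. The Trem2 level of vehicle replicate 4 was 3.20, against 3.57 for the nearest of the other vehicle samples, and this gap was 0.817 of the range of the group, above the critical value of 0.625 for 6 samples. Chance alone flags about 1 in 20 such sets. The same sample had the lowest mean of the macrophage core markers of all 16, at 3.76.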

How the results depend on the processing

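No member passed the threshold under any alternative run. Of the 213 member values that could differ under the other normalizations, probe choice, slide settings and covariate, or without the samples sharing an ID number, 171 kept their sign, as did 274 of the 320 with 1 sample of a compared group left out; the causes of the changes were not tested. The count of genes past the threshold was 1 without the filter on dim probes at 10 days and at 48 h against vehicle, in both cases 4930448H16Rik (log2 fold changes of -2.73 and -2.75), well above background on 4 arrays. It ran from 0 to 1 with 1 sample left out: A630052C17Rik at 10 days against vehicle without 10-day replicate 4, and BE945716 without vehicle replicate 1 or Dnaaf4 without vehicle replicate 5 at 48 h against vehicle and at 10 days against 48 h. The count of gene pairs past 0.05 was 1 after subtraction of the group means (Cd163 with Il10, r = 0.803) and 2 in the authors' table.

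The following log2 fold changes had the opposite sign. At 10 days against vehicle these were Arg1 (0.019) and Cd163 (-0.051) within slide 2, Chil3 (-1.0), Il10 (0.50), Trem2 (-0.049) and Nos2 (0.60) within slide 1, Chil3 (-0.091) and Nos2 (0.0023) with slide as a block, Chil3 (-0.012) with the macrophage mean as a covariate, Nos2 in the authors' table (0.024) and after normexp and quantile normalization (0.026), and Spp1 (0.015) and Nos2 (0.15) without the samples sharing an ID number. At 48 h against vehicle they were Arg1 (-0.15), Chil3 (-0.35), Retnla (0.23) and Nos2 (0.0079) within slide 1, Arg1 (-0.25), Chil3 (-0.77) and Nos2 (0.16) within slide 2, Chil3 (-0.066) and Retnla (0.070) with slide as a block, and Chil3 (-0.12) and Il10 (0.051) with the covariate. At 10 days against 48 h they were Cd163 (0.23) and Il10 (0.94) within slide 1, Arg1 (0.27), Mrc1 (-0.043), Chil3 (1.42), Trem2 (0.13), Gpnmb (-0.18) and Nos2 (-0.62) within slide 2, Cd163 (0.074) and Il10 (0.031) with slide as a block, Cd163 (0.019), Chil3 (0.11) and Trem2 (0.053) with the covariate, Cd163 (0.032) and Trem2 (0.0034) in the authors' table, and Cd163 (0.011), Trem2 (0.053) and Gpnmb (-0.014) after normexp.

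With 1 sample left out, the log2 fold changes that took both signs ran, at 10 days against vehicle, from -0.32 to 0.18 for Chil3, -0.97 to 0.087 for Il10, -0.18 to 0.15 for Nos2 and -0.12 to 0.043 for Spp1. At 48 h against vehicle they ran from -0.21 to 0.34 for Chil3, -0.31 to 0.069 for Il10 and -0.15 to 0.11 for Retnla. At 10 days against 48 h they ran from -0.089 to 0.12 for Cd163, -0.42 to 0.22 for Chil3, -0.15 to 0.38 for Gpnmb, -0.86 to 0.20 for Il10, -0.0080 to 0.059 for Mrc1, -0.031 to 0.23 for Retnla and -0.10 to 0.0095 for Trem2. No paired analysis was possible because the replicate numbers were given in accession order and pair no samples.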
